A study of Mus musculus with 6 samples.

Results

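The genes described here encode the Robo receptors (Robo1, Robo2 and Robo3), their Slit ligands (Slit1, Slit2 and Slit3), netrin-1 (Ntn1), the netrin receptors Dcc and Unc5c, and Nell2, a secreted ligand of Robo3. They were chosen by gene symbol, and all 10 were found among the 15095 genes of the deposited table, with 1 row each. The table comes from polyA RNA-seq of neural progenitor cells (NPCs) obtained in vitro from mouse embryonic stem cells, with 3 wild-type and 3 Setd2-KO libraries. Cells of both genotypes were kept for 4 days as aggregates without retinoic acid and for another 4 days with 5 uM retinoic acid, a signal that drives neural differentiation. The Setd2-KO cells lack the methyltransferase that places H3K36me3 on transcribed genes, and the knockout was made in the embryonic stem cells and thus present throughout. The sources used here do not say from which clone the knockout libraries came or whether the 3 libraries of a genotype were separate differentiations.

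The table holds 1 level per gene, the authors' average log2 CPM over all 6 libraries, in which the libraries of both genotypes are pooled. No value per library or per genotype was used. The sequencing depth is therefore unknown, no SD can be given, and neither the level of Setd2 nor a difference between the genotypes is reported. The columns of the authors' own comparison of the genotypes were not used here. What follows are therefore levels of the guidance genes in this pool of NPCs, without a test. In a bulk sample, a low level from few cells cannot be told apart from a low level in all cells.

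Axons that cross the midline of the spinal cord and hindbrain are steered by cues from the floor plate and the ventricular zone. Netrin-1 attracts commissural axons through Dcc, whereas receptors of the Unc5 family turn the netrin response to repulsion. Slit proteins repel axons through Robo1 and Robo2 and keep them from crossing again. Robo3 is made by commissural neurons before crossing, where it counters Slit repulsion, promotes the netrin response and mediates repulsion by Nell2. It is used as a marker of young commissural neurons.

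The cells had the markers of neural progenitors and of young neurons. Of the progenitor markers, Vim had an average log2 CPM of 9.82, Pax6 of 8.24, Nes of 7.78, Sox2 of 7.49 and Fabp7 of 3.56. Before a correction for length, Fabp7 lay below the median of all genes, 4.57. Per kb of exons, a measure described below, Fabp7 (3.21) lay above the median of 1.89. Sox1 was not analysed here. The 6 neuronal markers lay between 7.30 for Stmn2 and 9.75 for Tubb3, with Elavl3 at 8.38, Map2 at 8.28, Dcx at 8.13 and Nefl at 7.51. The labels list the cell type as embryonic stem cells, the cells from which the NPCs were made. The pluripotency markers were nevertheless low before a correction for length. They ranged from -0.19 for Nanog through Zfp42 (1.49), Pou5f1 (2.38), Dppa5a (2.40) and Esrrb (2.49) to 3.71 for Klf4. Per kb of exons, Klf4 (2.06) lay above the median of all genes, 1.89. Per kb of the canonical transcript, also described below, Dppa5a (2.86) lay above that of 2.77. Markers of the floor plate, which makes Slits, netrin-1 and Shh, were also low, with Shh at 0.92, Foxa2 at 3.56 and Spon1 at 3.95.

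Robo3 had the highest level of the 10 genes. Its average log2 CPM was 9.84, which is 917 CPM on a linear scale. Before a correction for length, this placed Robo3 79th among all 15095 genes, close to the neuronal tubulin Tubb3 and to Vim. Nell2, its ligand, followed at 7.21 (148 CPM). Robo1 at 7.07 (134 CPM) and Ntn1 at 7.03 (131 CPM) had similar values. Slit2 lay at 6.10 (68.5 CPM), Robo2 at 4.89 (29.7 CPM), Slit1 at 4.69 (25.8 CPM) and Slit3 at 4.65 (25.1 CPM). The netrin receptors came last, with Unc5c at 3.57 (11.8 CPM) and Dcc at 3.08 (8.46 CPM). The median of all genes in the table was 4.57, so that 8 of the 10 genes lay above it on this scale and Unc5c and Dcc below.

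A long transcript collects more reads than a short one at the same number of molecules, and levels of different genes were therefore compared per kb. The main length was that of all annotated exons of a gene together. Per kb of exons, Robo3 again came first of the 10 genes with a log2 level of 6.94, which exceeded that of 98.5% of all genes. Tubb3 (8.06) and Vim (7.57), close to Robo3 before the correction, lay above it per kb of exons. Robo3 was followed by Ntn1 (4.32, above 87.3% of genes), Nell2 (3.50, above 76.9%) and Robo1 (2.88, above 67.1%). These 4 genes lay above the median of all genes, 1.89 per kb. The 3 Slit genes lay below it and close together, with Slit1 at 1.52, Slit2 at 1.09 and Slit3 at 0.95. Robo2 (0.32) was above 30.3% of all genes, Dcc (-0.64) above 22.0% and Unc5c (-0.69) above 21.6%. From Robo3 to Unc5c, the level per kb thus spanned 7.64 on the log2 scale.

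The step from Robo3 to the next gene, Ntn1, was 2.63 on the log2 scale per kb of exons. The other steps between neighbours in the order ranged from 0.05 between Dcc and Unc5c to 1.37 between Robo1 and Slit1. Because the spread between libraries is unknown, no neighbours in this order are shown to differ. Per kb of the canonical transcript, the 1 transcript that the annotation takes to represent the gene, Nell2 (5.54) lay above Ntn1 (4.42), Slit2 (2.78) above Slit1 (2.30), Robo2 (1.72) above Slit3 (1.49) and Unc5c (0.30) above Dcc (-0.29). Robo3 (7.52) and Robo1 (3.86) kept their places. The median of all genes was 2.77 on this measure, so that 5 of the 10 genes lay above it, of which Slit2 only just did so.

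**Figure D1:**
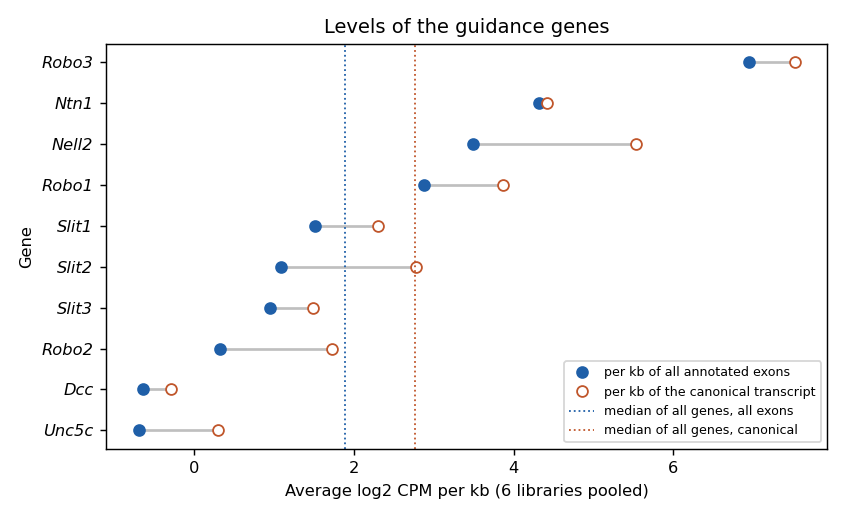
Average log2 CPM per kb (x axis, 6 libraries pooled by the authors) of the 10 genes (y axis); filled points use all annotated exons, open points the canonical transcript, and dotted lines mark the medians of all genes, 1.89 and 2.77. Robo3 lies to the right of the other genes on both measures, and the open and filled points of Nell2 and Slit2 lie far apart.

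**Figure D2:**
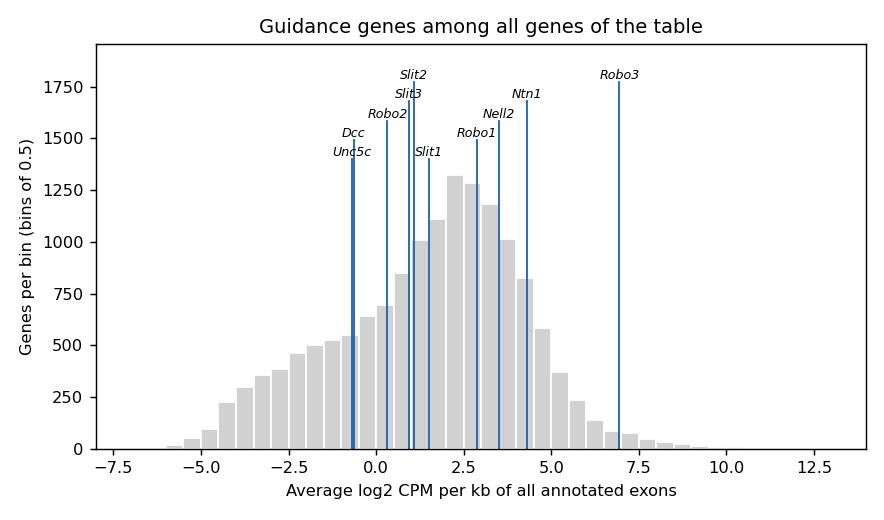
Histogram of the average log2 CPM per kb of all annotated exons (x axis, bins of 0.5) over all genes of the table with a length (y axis, genes per bin); blue lines mark the 10 guidance genes. Robo3 at 6.94 stands in the upper tail and Dcc and Unc5c, at -0.64 and -0.69, in the lower part.

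Within the Robo family, Robo3 made up 92.7% of the summed level per kb of exons, Robo1 5.55%, Robo2 0.94% and Robo4, which is known from blood vessels, 0.76%. With canonical transcripts, these shares were 90.7%, 7.19%, 1.63% and 0.54%. Robo3 exceeded Robo1, the next receptor, by 4.06 on the log2 scale per kb of exons and by 3.66 with canonical transcripts. Robo4 (log2 CPM 2.43) was accompanied by endothelial markers at 4.38 for Cdh5, 3.50 for Kdr, 3.47 for Pecam1 and -0.11 for Tek. Of these markers, only Cdh5 lay above the median of all genes per kb of exons (2.25 against 1.89). With canonical transcripts, Cdh5 lay below it (2.37 against 2.77). The part of endothelial cells in the level of Robo4 was not tested. Robo3 is also known to be made in isoforms that differ in their C terminus, and the annotation lists 17 transcripts, of which 5 are coding. A level per gene adds these up and does not show which one was present.

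The Slit genes showed no such dominance. Slit1 held 41.4%, Slit2 30.8% and Slit3 27.9% of the summed level per kb of exons. With canonical transcripts, Slit2 came first with 47.0%, before Slit1 with 33.7% and Slit3 with 19.2%. This change follows from the annotation of Slit2, whose exons together measure 32.2 kb in 36 transcripts, whereas its canonical transcript measures 9.96 kb. The order of the Slit genes thus rests on the choice of length.

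Nell2 exceeded its paralogue Nell1 by 5.12 on the log2 scale per kb of exons and by 6.45 with canonical transcripts, since Nell1 had a log2 CPM of only 1.88. Ntn1 and the membrane-bound Ntng2 were the main netrin genes. Ntng2 (log2 CPM 6.68) took 40.6% and Ntn1 31.5% of the summed level per kb over netrins and Draxin, a secreted protein that binds Dcc. Draxin itself took 16.5%, Ntn4 6.20%, Ntn3 4.56%, Ntng1 0.47% and Ntn5 0.16%. With canonical transcripts, Ntng2 took 61.8%, Ntn1 20.6% and Draxin 10.1%, whereas Ntn1 led with 39.6% against 31.0% for Ntng2 when length was not corrected for. The order of Ntn1 and Ntng2 therefore depends on the length that is used. The netrin-G proteins encoded by Ntng1 and Ntng2 do not bind Dcc. Of the secreted netrins, Ntn1 was the highest, with 4.32 per kb of exons before Ntn4 (1.98) and Ntn3 (1.53).

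Dcc and Unc5c were minor members among the netrin receptors. Per kb of exons, Dcc held 0.73% and Unc5c 0.70% of the summed level of 8 receptor genes. Unc5a (59.3%) and Neo1 (30.1%), the paralogue of Dcc, made up most of it, with Unc5b at 8.16%, Unc5d at 0.67%, Dscaml1 at 0.26% and Dscam at 0.13%. Dcc lay 6.35 below Unc5a on the log2 scale. With canonical transcripts, Neo1 (48.1%) passed Unc5a (44.4%), and Dcc (0.57%) and Unc5c (0.86%) stayed under 1%. The ligand Ntn1 was thus high and Dcc low in the same pool of cells, with a difference of 4.96 on the log2 scale per kb of exons and of 4.72 with canonical transcripts.

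The genes that act with these ligands and receptors were listed by role, with 74 of 75 found in the table beside the 10 described above. Of these 74 genes, 51 lay above the median of all genes per kb of exons. Their median level was 2.84, against 1.30 for the 10 guidance genes and 1.89 for all genes. With canonical transcripts, these medians were 3.57, 2.54 and 2.77. Without a correction for length, they were 6.18, 5.50 and 4.57. Whether the 10 genes lay below or above all genes by their median thus rests on the choice of length. Of 15 effectors of Slit and Robo, 13 lay above the median of all genes per kb of exons. The GTPase Rac1 (5.78) and the Robo-binding GTPase-activating protein Srgap3 (5.54) were at the top, followed by Cdc42 (4.38). Srgap1 (3.12) and Srgap2 (2.73) were lower. Ndfip1 (2.68) and Ndfip2 (1.76), adaptors that lower Robo1 at the cell surface, lay on either side of the median per kb of exons. With canonical transcripts, both Ndfip1 (4.91) and Ndfip2 (3.95) lay above that of 2.77. Of 10 effectors of netrin and Dcc, 5 lay above the median per kb of exons, led by the kinases Src (4.07), Ptk2 (3.22) and Fyn (3.18).

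Heparan sulfate proteoglycans act as coreceptors of Slits, and 10 of 12 genes for them and for matrix partners lay above the median per kb. The sulfotransferase Hs6st1 (5.55), the glypican Gpc1 (4.59) and the syndecan Sdc3 (4.27) were the highest. Of 15 genes for adhesion proteins and other midline cues, 12 lay above the median, among them the growth cone protein Gap43 (5.98), the planar polarity protein Vangl2 (5.79) and Cntn2 (5.13), an adhesion protein of commissural axons before crossing. Stoml3 of this list was not analysed here. The transcription factors Lhx2 and Lhx9, known to act upstream of Robo3 in dorsal commissural neurons, had low levels, with a log2 CPM of 3.28 for Lhx2 and -1.76 for Lhx9, and Barhl2 of the same lineage lay at -2.31. In the same list, the RNA-binding proteins Ptbp1 (6.51 per kb), Ptbp2 (4.63) and Nova2 (4.52) were highest. Robo3 exceeded each of the 74 genes per kb of exons.

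**Figure D3:**
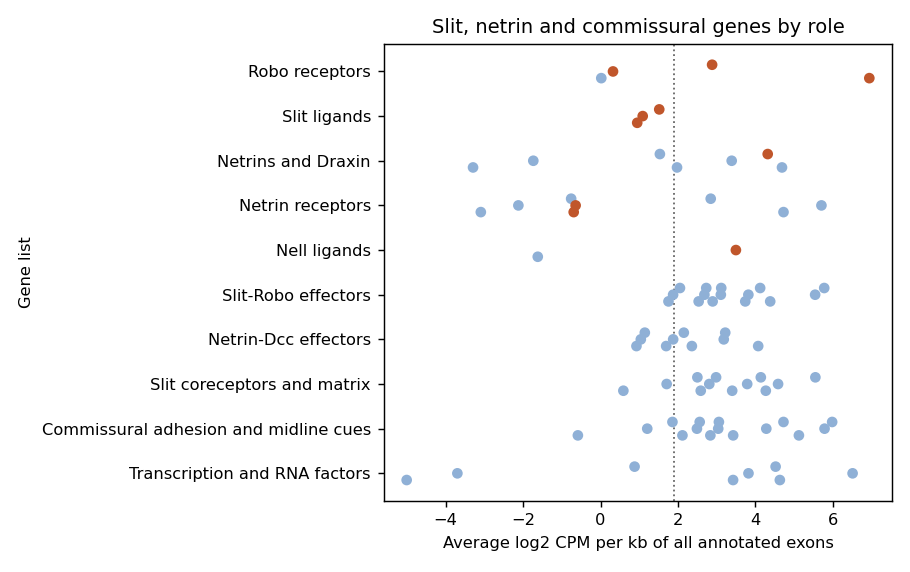
Average log2 CPM per kb of all annotated exons (x axis) of the Slit, netrin and commissural genes by role (y axis); orange points are the 10 genes described here, blue points the other listed genes, the vertical offsets only separate points, and the dotted line is the median of all genes (1.89). Robo3 lies at the right end, and the effectors and coreceptors lie mostly to the right of the line, whereas Dcc and Unc5c lie to its left.

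The genes also differed in length. Robo3 lies on chromosome 9 from 37326965 to 37344737 (GRCm39, minus strand) and spans 17.8 kb, less than the median of all genes of 25.8 kb, and 41.9% of its span is annotated as exonic. The other 9 genes were longer than at least 90.7% of all genes. Robo1 (chromosome 16, 72105194 to 72844378, plus strand) spans 739 kb and Robo2 (chromosome 16, 73688727 to 75244270, minus strand) 1556 kb. Both lie on the same chromosome and point in opposite directions. Dcc (chromosome 18, 71386705 to 72484179, minus strand) spans 1097 kb. Exons made up 2.46% of Robo1, 1.53% of Robo2 and 1.20% of Dcc.

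Among the ligands, Slit1 (chromosome 19, 41588676 to 41732268, minus strand) spans 144 kb, Slit2 (chromosome 5, 48140480 to 48465075, plus strand) 325 kb and Slit3 (chromosome 11, 35011789 to 35602786, plus strand) 591 kb. Ntn1 (chromosome 11, 68100190 to 68291662, minus strand) spans 191 kb and Nell2 (chromosome 15, 94973111 to 95465972, minus strand) 493 kb. Unc5c (chromosome 3, 141170977 to 141540685, plus strand) spans 370 kb. The coding lengths of the Robo receptors and Dcc were closer to each other than their spans, with 4836 bases in Robo1, 4410 in Robo2, 4206 in Robo3 and 4341 in Dcc, in 28 or 29 exons of the canonical transcript. Unc5c was shorter, with 2793 coding bases in 16 exons. The Slit genes had 4593, 4563 and 4569 coding bases in 37, 36 and 36 exons. Much of the difference in transcript length lay outside the coding part, which took 84.1% of the canonical transcript in Robo3, 52.5% in Robo1, 48.9% in Robo2 and 29.0% in Unc5c.

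Exons of 5 of the 10 genes overlap exons of another annotated gene. The longest overlap was that of Robo1 with the antisense RNA gene Gm29908 (755 bases), and Robo2 shares 450 bases with Gm49677 on the same strand. Ntn1 overlaps Gm31954 by 95 bases, Unc5c overlaps Gm15688 by 118 bases, and Slit3 overlaps Gm74384 by 342 and Gm73299 by 81 bases, each on the opposite strand. None of these 6 overlapping genes was among the 15095 genes analysed here. They were taken from GENCODE M39, whereas the levels rest on the authors' annotation and a filter on low counts. Their absence thus does not show that they were not expressed. The sources used here do not say whether the counting used strand. Reads from the 5 genes on the opposite strand would have added to the level of the guidance gene if strand was not used, and reads from Gm49677 could not be told apart from those of Robo2 by strand. The exons of Robo3, Nell2, Slit1, Slit2 and Dcc overlap no exons of another annotated gene.

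**Figure D4:**
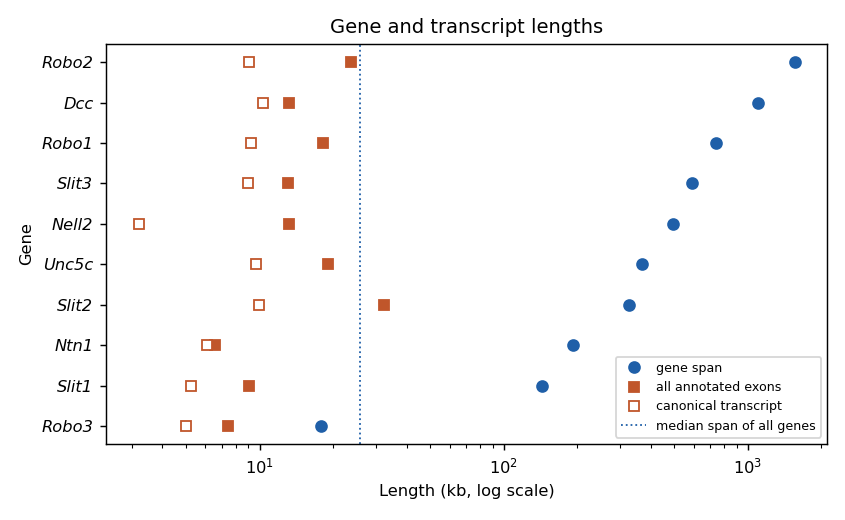
Length in kb (x axis, log scale) of the 10 genes (y axis), with the gene span as circles, all annotated exons together as filled squares and the canonical transcript as open squares; the dotted line is the median span of all genes, 25.8 kb. The span of Robo3 (17.8 kb) lies to the left of the line and those of the other genes far to its right, while the transcript lengths of all genes are closer together.

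Sequences before the transcription start were taken from RefSeq (GRCm38.p6), with a window of 250 bases before and 50 bases after each annotated start. Windows were found for 6 of the 10 genes, with 3 windows for Robo2, and no window was found for Slit1, Dcc, Ntn1 and Nell2. An annotated start need not be the outer start of the gene described above. The builds differ, but the Robo1 window begins at 72662899, far beyond the gene start of 72105194 on GRCm39. It may thus mark a start inside Robo1, which was not tested. The 250 bases before the start are shown for Robo3 and Unc5c, the genes with the highest and the lowest level per kb of exons, and for Robo1 and Slit2 as another receptor and a ligand. Capitals mark CpG dinucleotides, of which these stretches hold 12 in Robo3 (chr9:37433176-37433425, minus strand), 11 in Robo1 (chr16:72662899-72663148, plus strand), 25 in Slit2 (chr5:47982905-47983154, plus strand) and 23 in Unc5c (chr3:141465314-141465563, plus strand).
Robo3: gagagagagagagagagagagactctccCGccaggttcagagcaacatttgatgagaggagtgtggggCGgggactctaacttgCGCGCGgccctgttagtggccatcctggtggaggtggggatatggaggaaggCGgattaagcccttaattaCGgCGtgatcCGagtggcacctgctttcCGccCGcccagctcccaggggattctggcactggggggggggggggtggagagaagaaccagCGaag
Robo1: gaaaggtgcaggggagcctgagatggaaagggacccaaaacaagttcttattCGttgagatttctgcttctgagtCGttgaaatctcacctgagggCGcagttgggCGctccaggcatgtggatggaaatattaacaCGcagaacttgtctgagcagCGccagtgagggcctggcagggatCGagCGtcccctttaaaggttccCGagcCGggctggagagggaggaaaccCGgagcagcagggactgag
Slit2: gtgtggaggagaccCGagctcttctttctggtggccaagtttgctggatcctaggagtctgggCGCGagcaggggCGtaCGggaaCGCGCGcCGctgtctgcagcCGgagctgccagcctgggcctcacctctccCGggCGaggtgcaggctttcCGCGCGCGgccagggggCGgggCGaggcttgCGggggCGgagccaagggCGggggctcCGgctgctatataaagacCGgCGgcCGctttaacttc
Unc5c: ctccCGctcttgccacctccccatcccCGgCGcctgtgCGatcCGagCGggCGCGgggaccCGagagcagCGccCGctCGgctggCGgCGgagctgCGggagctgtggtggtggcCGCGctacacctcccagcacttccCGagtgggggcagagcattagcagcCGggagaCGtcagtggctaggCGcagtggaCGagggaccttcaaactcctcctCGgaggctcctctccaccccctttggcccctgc

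CpG-rich promoters are usual in widely used and in developmental genes. Over the whole window of 300 bases, the ratio of observed to expected CpG was 0.60 in Robo3, 0.65 in Robo1 and 0.69 in Unc5c, below the median of 0.72 over 15115 windows of 11865 genes of the table. The 3 windows of Robo2 had ratios of 0.33, 0.45 and 0.55. Slit2 (0.90) and Slit3 (0.93) lay above the upper quartile of 0.89. The windows of the 3 receptor genes of the Robo family thus held fewer CpGs than those of Slit2 and Slit3. For Robo1, this holds for a window that may lie at a start inside the gene. The Robo2 windows with ratios of 0.33 and 0.55 lie downstream of the one with 0.45, and thus mark starts inside Robo2. Whether the windows of the other genes lie at their outer starts was not tested. Among the 6 genes with a window, Robo3 had the highest level per kb of exons but not the highest CpG ratio. A link between level and CpG ratio was not tested, and Ntn1 and Nell2 are among the genes without a window. Of 4 short motifs searched on both strands, the GC box GGGCGG was found 3 times in Robo3, 3 times in Slit2 and 6 times in Slit3, in 3 of the 8 windows, against 60.6% of all windows. The TATA box TATAAA was found in Slit2 alone (7.44% of all windows), shortly before the start, as the sequence above shows. The E-box CAGCTG was found in 1 window of Robo2, the one with a ratio of 0.55 (15.7% of all windows). AGGTCA, a half-site bound by retinoic acid receptors, was found in 0 of the 8 windows (12.7% of all windows). A match of so few letters is a description of the window and not a binding site.

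**Figure D5:**
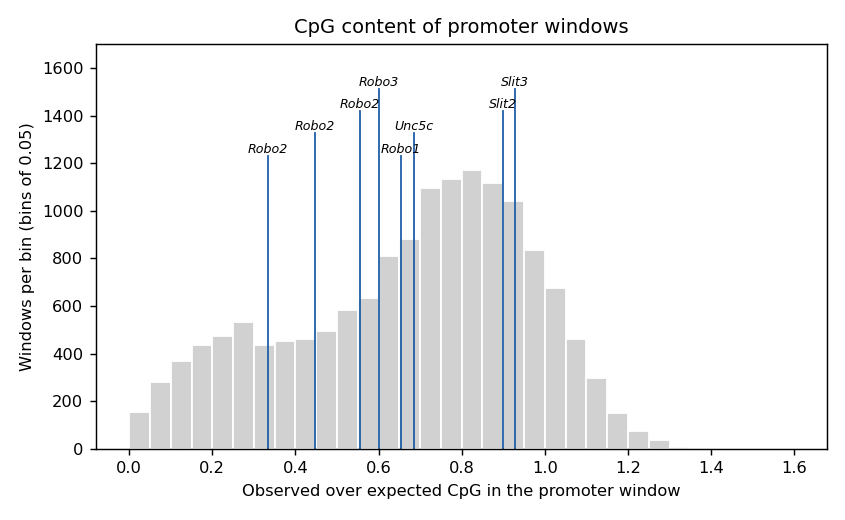
Histogram of the observed over expected CpG ratio (x axis, bins of 0.05) over 15115 RefSeq promoter windows of genes in the table (y axis, windows per bin); blue lines mark the 8 windows of the guidance genes. The Robo windows lie between 0.33 and 0.65, and those of Slit2 and Slit3 at 0.90 and 0.93.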

How the data were processed

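The authors made strand-specific libraries from polyA RNA of NPCs, 3 for each genotype. The authors' deposited table gives an average log2 CPM over the 6 libraries, computed by the authors with edgeR after a filter on low counts and TMM normalization. The builds NCBIM37 and mm9 and the tools Trim Galore, STAR and edgeR stand in the submitters' processing notes, while Salmon quantification with GENCODE M35 on GRCm39 is described in the paper's methods. The 4 other numeric columns of the table, fold changes, p-values and FDR, hold the authors' own comparison and were not used. The deposited level mixes both genotypes and carries no SD, and the depth per library is unknown, so no test was made.

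Here, gene IDs were matched without version to GENCODE M39 (GRCm39; 15066 of 15095 matched), and the log2 of the length in kb was subtracted from each log2 CPM. These lengths are not those of the authors' annotation. A position is the percentage of genes with a lower level. Medians per kb were taken over all genes with a length, and the median log2 CPM over all 15095 genes. Shares are percentages of the summed level of the listed genes of a family. RefSeq promoters (GRCm38.p6) were matched by Entrez ID, and no coordinates were converted. Members and lists were chosen with earlier results of these data known. Named were all members, the highest genes of each list per kb, and markers; Srgap1, Srgap2, Ndfip1, Ndfip2, Lhx2, Lhx9, Barhl2 and the family paralogues were named beyond this rule after their values were seen. 1 marker gene of the lists is not reported here. Steps were tested on simulated data. Python 3.11.15, numpy 2.4.6, pandas 2.3.3 and matplotlib 3.10.9 were used.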

Additional observations from a re-analysis of the deposited data

How the results depend on the processing

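All 10 genes were found by symbol and also by gene ID. The number of guidance genes above the median of all genes was 4 per kb of exons, 5 with the longest or the canonical transcript, 8 with no length correction, and 4 against protein-coding genes or against genes whose log2 CPM was 0 or more. Of the 74 other genes, between 47 and 56 lay above the median under these alternatives. Of the 10 places in the order of levels, 4 were the same with the longest transcript, 2 with the canonical transcript and 1 with no length correction, that of Robo3. The choice of genes for comparison does not enter this order. The position of Robo3 ranged from 98.1% to 99.5% over all alternatives, while that of Slit2 ranged from 30.4% to 75.8% and that of Robo2 from 21.0% to 55.2%. Genes at low levels, such as Dcc and Unc5c, rest on the fewest reads, and the depth is unknown. No paired analysis was possible because no values per library were used, and no library could be left out. Comparisons of protein sequences and another promoter window were planned but not run, since no protein sequences and no genome of the build of the promoter windows were used here.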

Other observations

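The gene IDs of the deposited table carry version numbers. Of the 15066 IDs matched to GENCODE M39, 15053 had a lower version in the table, 11 the same and 2 a higher one, with a median difference of 8. For Robo3, the version was 7 in the table and 17 in the annotation, and for Robo2 it was 11 and 23. Which annotation the authors used for the table was not tested, and lengths per gene may therefore differ from those behind the counts.

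Some markers of cells other than progenitors and neurons were also found in the table. The endoderm genes Apoa1 (log2 CPM 4.11), Afp (3.54), Ttr (2.20) and Amn (0.22) and the glial genes Mbp (4.53), Sox10 (-1.37) and Gfap (-2.26) lay below the median of all genes, 4.57, before a correction for length, and Aqp4 was not analysed here. Per kb of exons, Apoa1 (3.34) lay above the median of all genes, 1.89, and with canonical transcripts Apoa1 (3.54) and Mbp (3.42) lay above that of 2.77. Their part in the levels of the guidance genes was not tested.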
